A study of Mus musculus with 2 samples.

Results

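The 8 genes described here handle serotonin in the gut: Tph1 and Ddc make it, Slc18a1 loads it into vesicles, Slc6a4 and Slc29a4 take it up into cells, Maoa and Maob break it down, and Htr4 receives it. They were chosen by gene symbol, and all 8 were present among the 33083 genes listed for each of 2 mouse colon libraries. Each gene was read in every cell class of each library, and none of the 8 was used to define a class.

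Most of the body's serotonin is made outside the brain, by enterochromaffin cells of the gut epithelium. Tryptophan hydroxylase 1 (Tph1) adds a hydroxyl group to tryptophan and limits the rate of the pathway, aromatic L-amino acid decarboxylase (Ddc) then gives serotonin, and the vesicular monoamine transporter VMAT1 (Slc18a1) packs it for release. Released serotonin acts on receptors of neurons and epithelial cells until it is taken into cells that hold monoamine oxidase, above all the colonocytes around the source.

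The libraries are 10x Genomics 3′ single-cell RNA libraries of mouse colon from a study of gut tuft cells in Alzheimer's disease. The AD library came from mice of the APP/PS1-21 transgenic model, whose mutant human APP and presenilin 1 transgenes are driven in neurons by the Thy1 promoter, and the WT library came from wild-type mice. There was 1 library per genotype, so the values compare these libraries and carry no test between genotypes, and the labels used here give neither age nor the number of animals per library. The design text names the epithelium, whereas the protocol describes minced whole colon digested with trypsin and DNase I, and both libraries held stromal and immune cells.

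The AD library held 6675 barcodes with 38731915 unique molecular identifiers (UMIs, counts of distinct RNA molecules) and the WT library held 4146 barcodes with 26898149 UMIs. More than 25% of UMIs were mitochondrial in 29.2% of AD and 60.4% of WT barcodes, and 4691 AD and 1550 WT cells were kept. Their median depth was 3720.0 UMIs in AD cells and 3724.5 UMIs in WT cells, and 7 barcode sequences occurred in both libraries. Cells were put into classes by marker genes, and the class names mean "like" that cell type throughout. A further 243 AD and 47 WT cells met the gates of more than 1 unrelated class and were set aside as mixed, with 167 AD and 39 WT cells lying near that limit, and no doublet caller was run.

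Among 1469 AD and 531 WT epithelial cells, 52 AD and 45 WT cells were enteroendocrine, the hormone-releasing cells of the epithelium. Of these, 31 AD and 36 WT cells formed the enterochromaffin class, which was defined by at least 1 of Tac1, Lmx1a, Fev, Ucn3 and Trpa1 and fewer than 2 peptide hormone markers. Tac1, Lmx1a and Fev were detected, whereas Ucn3 and Trpa1 had 0 UMIs in enterochromaffin cells of both libraries. The peptide enteroendocrine class, with hormone genes such as Pyy, Gcg and Insl5, held 11 AD and 6 WT cells, and 10 AD and 3 WT cells had neither set of markers. Enterochromaffin cells made up 2.11% (exact Clopper-Pearson 95% interval 1.44 to 2.98) of AD epithelial cells and 6.78% (4.79 to 9.26) of WT epithelial cells. All intervals given here cover counting error only, not the spread between animals. Those on summed UMIs also leave out the spread between cells. With a mitochondrial limit of 50% in place of 25% the shares were 1.14% in AD and 1.98% in WT, and with 1 library each, library and genotype cannot be told apart.

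The 8 genes differed in the cell classes that held them, and Tph1, Ddc and Slc18a1 shared 1 class. Levels are summed UMIs of a class per 1000000 UMIs of that class (CPM), with exact Poisson 95% intervals. Tph1, Ddc and Slc18a1 were highest in enterochromaffin cells, Slc29a4 in peptide enteroendocrine cells, Maoa in colonocytes, and Htr4 in crypt stem cells, in both libraries. Slc6a4 was low everywhere, and Maob was spread over colonocytes, cycling crypt cells, enterochromaffin cells and fibroblasts. Tuft cells, the subject of the original study, numbered 2 in the AD library and 10 in the WT library, and held 0 UMIs of the 8 genes in AD and 1 UMI each of Ddc and Maob in WT.

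**Figure D1:**
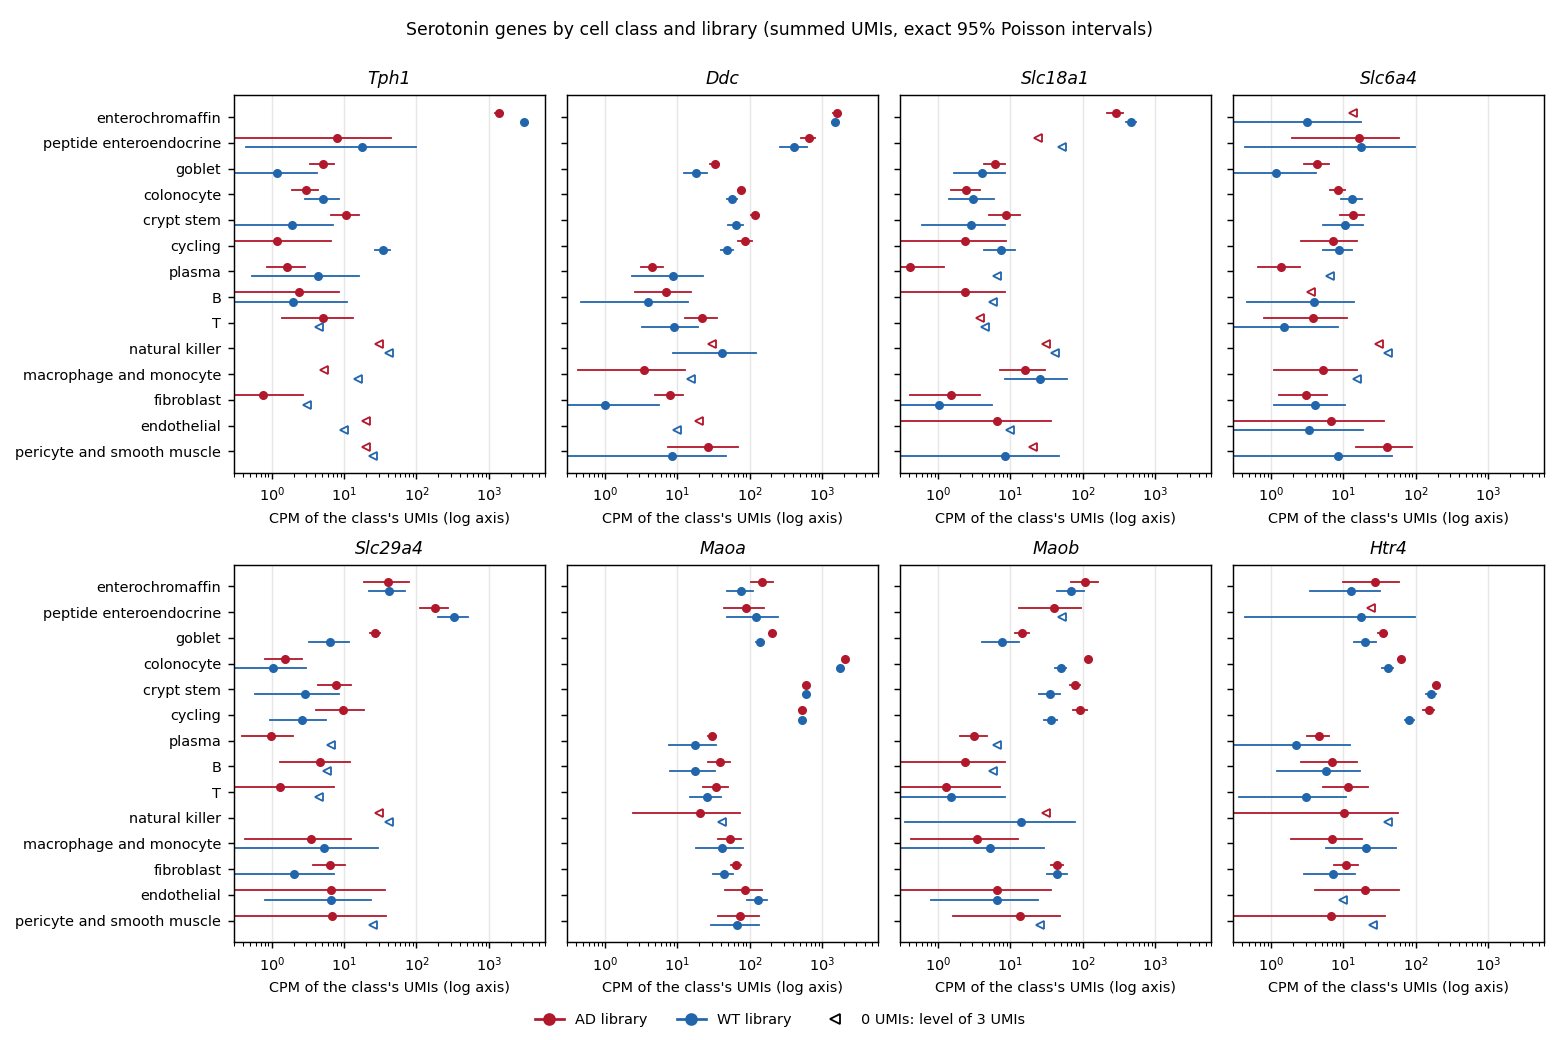
Level of each serotonin gene by cell class (CPM of the class's UMIs, log axis), AD in red above WT in blue, with exact 95% Poisson intervals that are cut where they reach the left edge. Open triangles mark classes with 0 UMIs at the level that 3 UMIs would give. Tph1, Ddc and Slc18a1 peaked in enterochromaffin cells at 1381, 1604 and 286 CPM in AD and 3094, 1496 and 466 CPM in WT, and Maoa peaked in colonocytes.

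Tph1, the rate-limiting enzyme, lay mostly in enteroendocrine cells and had the largest gap between libraries of the 5 genes compared in enterochromaffin cells. It had 304 UMIs in the 31 AD enterochromaffin cells, a level of 1381 CPM (1230.3 to 1546), and 976 UMIs in the 36 WT cells, a level of 3094 CPM (2903 to 3294). The log2 ratio of AD over WT was −1.16 (−1.35 to −0.98), a level 2.24-fold higher in WT. The AD cells ranged from 0 to 79.0 Tph1 UMIs per 10000 with a median of 11.2, and the WT cells from 0 to 139 with a median of 30.5. The cells of the 2 libraries overlapped over the whole AD range, and the WT library had the higher cells.

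The transcript was detected in 27 of 31 AD cells (87.1%) and 33 of 36 WT cells (91.7%). After each cell was thinned to 1000 UMIs, the median share over 20 draws was 60.0% in AD and 77.8% in WT, with 1 AD cell too shallow to be used. Plasma cells, which should lack Tph1, showed it in 12 of 1008 AD cells (1.19%) and 2 of 56 WT cells (3.57%). Median depth was 5157 UMIs in AD and 7429 UMIs in WT enterochromaffin cells, against 5775.5 UMIs in AD and 6836.5 UMIs in WT plasma cells. The share in enterochromaffin cells was thus many times the share in plasma cells, which free RNA can give, in both libraries.

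The size of the Tph1 gap depended on which cells were counted. The AD cell with the most Tph1 held 71 UMIs, 23.4% of the AD sum, and the WT cell with the most held 110 UMIs, 11.3% of the WT sum. Without these cells the log2 ratio was −1.36. In enterochromaffin cells with only 1 of the defining markers, 10 in each library, Tph1 had 14 UMIs (385 CPM) in AD and 297 UMIs (5484 CPM) in WT. In cells with at least 2 of them, 21 in AD and 26 in WT, it had 290 UMIs (1579 CPM) in AD and 679 UMIs (2598 CPM) in WT. The log2 ratio was −0.72 in these cells with 2 or more markers, a subset chosen after the data were seen, so the gap there was in the same direction but under 2-fold.

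Several other measures moved with Tph1 in enterochromaffin cells, and their part in the result was not tested. The summed level of the 18 enteroendocrine markers, 16 of them detected in each library with Scg2 and Neurod1 at 0, was 26099 CPM in AD and 45710 CPM in WT. Per cell this was a median of 282 UMIs per 10000 in AD (range 14.3 to 918) and 496 in WT (14.1 to 952). Most of the marker sum came from Chga and Chgb. Chga, a granule protein gene, was at 6397 CPM in AD and 10492 CPM in WT, and its relative Chgb at 17016 CPM in AD and 30957 CPM in WT. Of the other detected markers, Scg3, Insm1 and Cplx2 had log2 ratios of 0.47, 0.06 and 0.02. The rest were negative, from −1.60 for Isl1 to −0.22 for Pax6. The gate genes Tac1 and Fev had log2 ratios of 0.82 and 0.52, and Lmx1a of −0.68.

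RNA of other classes was also unequal between the 2 sets of enterochromaffin cells. The 9 plasma cell markers summed to 2862 CPM in AD, with 7 of 9 detected, and to 206 CPM in WT, with 5 of 9 detected, and Mzb1 and Tnfrsf17 were at 0 in both. Their median per cell was 24.9 UMIs per 10000 in AD (7.06 to 471) and 1.46 in WT (0 to 7.43). Goblet cell markers summed to 713 CPM in AD and 479 CPM in WT, with medians of 5.98 and 2.59 UMIs per 10000 per cell in AD and WT. The median mitochondrial share was 7.87% in AD cells and 7.41% in WT cells. The part of these values in the Tph1 difference was not tested.

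Ddc, which completes synthesis and also makes dopamine, differed by less than its counting error between the libraries in the same cells. It had 353 UMIs in AD enterochromaffin cells, a level of 1604 CPM (1441 to 1780.3), and 472 UMIs in WT cells, a level of 1496 CPM (1364 to 1637). The log2 ratio was 0.10 (−0.10 to 0.30). Cells ranged from 0 to 34.1 Ddc UMIs per 10000 in AD with a median of 16.5, and from 0 to 42.2 in WT with a median of 12.3. It was detected in 30 of 31 AD and 33 of 36 WT cells, so the libraries overlapped almost fully.

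Tph1 and Ddc were found in the same cells. All 27 AD enterochromaffin cells with Tph1 also had Ddc, as did 30 of 33 such WT cells. The ratio of Tph1 UMIs to Ddc UMIs, which uses no other gene as a scale, was 0.861 (0.736 to 1.01) in AD cells and 2.07 (1.85 to 2.31) in WT cells, and these intervals did not overlap. The promoter windows of both genes are printed here because this pair shared its cells while its ratio differed between libraries. They come from RefSeq on GRCm38.p6, from which 7 windows were read for 5 of the 8 genes, with Htr4 left out beforehand. Each printed window runs from 250 bases before to 50 bases after an annotated start, on the minus strand. Capitals mark, on either strand, the TATA box letters TATAAA, the GC box core GGGCGG and the letters TAATTA, the core of many homeodomain sites.
Tph1, chr7:46672488-46672787: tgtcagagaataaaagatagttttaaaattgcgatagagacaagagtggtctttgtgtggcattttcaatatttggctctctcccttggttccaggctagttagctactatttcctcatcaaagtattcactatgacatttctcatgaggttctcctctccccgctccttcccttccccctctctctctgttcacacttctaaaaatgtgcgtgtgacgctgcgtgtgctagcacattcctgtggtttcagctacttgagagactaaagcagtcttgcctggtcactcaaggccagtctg
Tph1, chr7:46667328-46667627: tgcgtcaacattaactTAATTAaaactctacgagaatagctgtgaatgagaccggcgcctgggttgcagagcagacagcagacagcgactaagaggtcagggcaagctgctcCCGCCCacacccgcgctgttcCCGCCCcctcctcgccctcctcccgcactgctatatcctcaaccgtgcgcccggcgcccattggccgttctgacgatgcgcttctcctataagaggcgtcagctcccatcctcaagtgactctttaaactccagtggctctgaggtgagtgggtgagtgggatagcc
Ddc, chr11:11898095-11898394: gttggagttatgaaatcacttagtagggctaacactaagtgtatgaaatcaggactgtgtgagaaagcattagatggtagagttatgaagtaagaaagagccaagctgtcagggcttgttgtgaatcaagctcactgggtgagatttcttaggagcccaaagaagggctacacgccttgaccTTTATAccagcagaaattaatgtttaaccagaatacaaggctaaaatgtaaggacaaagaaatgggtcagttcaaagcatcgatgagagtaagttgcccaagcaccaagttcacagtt
Ddc, chr11:11890359-11890658: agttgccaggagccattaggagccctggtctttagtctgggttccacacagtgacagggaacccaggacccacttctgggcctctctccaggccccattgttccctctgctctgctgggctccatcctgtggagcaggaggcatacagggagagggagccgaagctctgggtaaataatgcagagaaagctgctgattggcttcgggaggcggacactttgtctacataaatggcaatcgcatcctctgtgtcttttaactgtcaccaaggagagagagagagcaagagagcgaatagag

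The window of Tph1 at 46667328 held 2 GGGCGG matches and 1 TAATTA match, and the window of Ddc at 11898095 held 1 TATAAA match, none of which overlapped another. The other Tph1 and Ddc windows held none of these letters. The GGGCGG motif occurred in 35.7% of 32851 RefSeq windows of this length, the TATAAA motif in 13.6% and the TAATTA motif in 5.29%. The CANNTG motif, the core of an E-box, occurred in 72.3% of windows and 1 time in the same Tph1 window. The libraries count 3′ ends and do not tell which start was used, so the matches are a description of the letters only.

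Ddc was not confined to enterochromaffin cells. In peptide enteroendocrine cells it had 81 UMIs (656 CPM) in AD, in 10 of 11 cells, and 24 UMIs (417 CPM) in WT, in 3 of 6 cells. Tph1 had 1 UMI in that class in each library. Outside the enteroendocrine lineage, Ddc was at 118 CPM in AD and 64.4 CPM in WT crypt stem cells, with a log2 ratio of 0.87 (0.48 to 1.29). It was at 76.0 CPM in AD and 57.0 CPM in WT colonocytes, with a log2 ratio of 0.41 (0.17 to 0.67). The values were 0.83 (0.38 to 1.26) in cycling cells and 0.83 (0.30 to 1.45) in goblet cells, so Ddc was higher in AD in each of these 4 classes, by less than 2-fold. With a 10% mitochondrial limit in place of 25% it was −0.999 in crypt stem cells and −0.13 in colonocytes, lower in AD, and 1.86 in cycling cells. The enteroendocrine marker list was at 324 CPM in AD and 69.2 CPM in WT crypt stem cells, and at 165.7 CPM in AD and 34.6 CPM in WT goblet cells, and its part in the Ddc values was not tested. In plasma cells it had 33 UMIs in AD and 4 UMIs in WT, with a log2 ratio of −1.11 (−2.45 to 1.00) that its counting error spans.

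Slc18a1, the vesicle loader, lay between Tph1 and Ddc in its ratio. It had 63 UMIs in AD enterochromaffin cells, a level of 286 CPM (220.0 to 366), and 147 UMIs in WT cells, a level of 466 CPM (394 to 548). The log2 ratio was −0.70 (−1.15 to −0.27), lower in AD by less than 2-fold. It was detected in 22 of 31 AD and 27 of 36 WT cells, with medians of 2.00 and 3.67 UMIs per 10000 in AD and WT. In peptide enteroendocrine cells it had 0 UMIs in both libraries, which allows a level of up to 24.3 CPM in AD and 52.2 CPM in WT. Its next highest class in both libraries was macrophages and monocytes, at 15.7 CPM (9 UMIs) in AD and 26.0 CPM (5 UMIs) in WT.

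The whole set for making and storing serotonin was carried mainly by single cells of the enterochromaffin class. Tph1, Ddc and Slc18a1 were all detected in 21 of 31 AD enterochromaffin cells (67.7%, interval 48.6 to 83.3) and in 26 of 36 WT cells (72.2%, 54.8 to 85.8). They were all detected in 0 of 11 AD and 0 of 6 WT peptide enteroendocrine cells, and in 1 of 663 AD and 2 of 175 WT colonocytes. Slc18a1 UMIs per Tph1 UMI differed less than Tph1 per Ddc: there were 4.83 (3.67 to 6.43) Tph1 UMIs for each Slc18a1 UMI in AD and 6.64 (5.58 to 7.95) in WT, and these intervals overlapped. Per Ddc UMI there were 0.178 (0.134 to 0.234) Slc18a1 UMIs in AD and 0.311 (0.257 to 0.376) in WT, intervals that did not overlap.

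**Figure D2:**
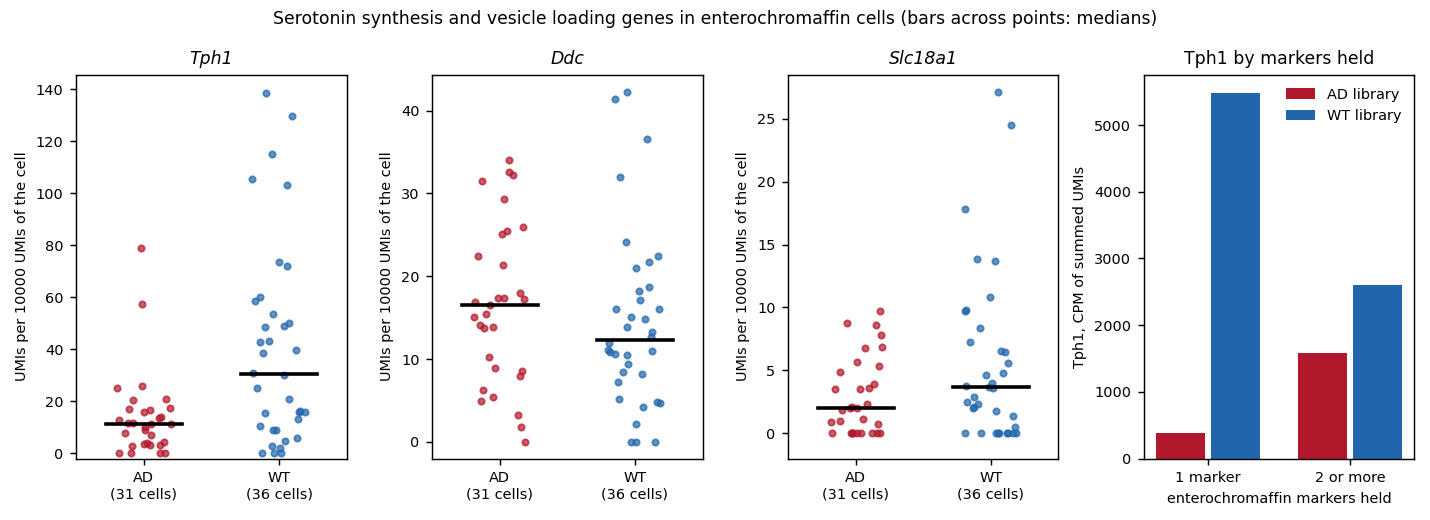
UMIs of Tph1, Ddc and Slc18a1 per 10000 UMIs in each enterochromaffin cell (points; black bars are medians; 31 AD and 36 WT cells), and the Tph1 level in CPM of cells that hold 1 or at least 2 enterochromaffin markers (bars), AD left of WT. Median Tph1 was 11.2 in AD and 30.5 in WT cells, median Ddc was 16.5 in AD and 12.3 in WT cells, and the Tph1 bars differed most in cells with 1 marker, at 385 CPM in AD and 5484 CPM in WT.

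Sums over broader groups gave larger gaps for Tph1, and the makeup of these groups differed between the libraries. Over all enteroendocrine cells the log2 ratio was −1.71 (−1.90 to −1.53) for Tph1, −0.16 (−0.35 to 0.02) for Ddc and −1.26 (−1.71 to −0.84) for Slc18a1. Over all epithelial cells Tph1 was at 21.6 CPM in AD and 129.8 CPM in WT, a log2 ratio of −2.59 (−2.76 to −2.42), and Slc18a1 had a log2 ratio of −1.51 (−1.84 to −1.19). Enterochromaffin cells gave 1.23% of AD and 3.72% of WT epithelial UMIs. Epithelial cells outside the enteroendocrine class had 78 Tph1 UMIs in AD and 99 in WT, a log2 ratio of −1.45 (−1.90 to −1.01). The part of makeup in these gaps was not tested.

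Tph1 in the other epithelial classes came largely from a few cells, most of which also held enteroendocrine markers. In cycling cells it had 1 UMI in AD and 79 UMIs in WT, and 77 of the 79 lay in 3 WT cells with 31, 24 and 22 UMIs, which held 9, 7 and 10 enteroendocrine markers. The log2 ratio there was −4.26 (−10.16 to −2.32). In goblet cells it had 30 UMIs in AD, 22 of them in 3 cells, and 2 UMIs in WT, a log2 ratio of 1.81 (0.13 to 5.22). In crypt stem cells it had 22 UMIs in AD, 21 of them in 3 cells, and 2 UMIs in WT. In colonocytes it had 25 UMIs in AD and 15 in WT, a log2 ratio of −0.83 (−1.79 to 0.22). A cell was given the epithelial subclass with its highest marker score, so such cells could hold markers of more than 1 subclass.

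Some Tph1 lay outside the epithelium too. Mast cells can make serotonin, and 1 of the 2 AD mast cells held 5 Tph1 UMIs, while no cell of the WT library met the mast gate. Group 2 innate lymphoid cells had 4 UMIs in 4 of 25 AD cells and 4 UMIs in 1 of 6 WT cells. These counts are too few for a level to be compared.

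Uptake transporters had few UMIs. Slc6a4, the serotonin transporter SERT, had 175 UMIs over the kept cells of the AD library and 84 over those of the WT library, and colonocytes held 40.6% in AD and 45.2% in WT. In colonocytes it was at 8.36 CPM (71 UMIs) in AD and 13.1 CPM (38 UMIs) in WT, with a log2 ratio of −0.65 (−1.23 to −0.03). Over 13 alternatives this ratio ran between −2.74, with a 10% mitochondrial limit, and 0.19, with no limit. In crypt stem cells it was at 13.4 CPM in AD and 10.6 CPM in WT, with a log2 ratio of 0.31 (−0.71 to 1.5). Enterochromaffin cells held 0 UMIs in AD and 1 UMI in WT. The Poisson upper limits there were 16.8 CPM in AD and 17.7 CPM in WT. These lie above the colonocyte levels, so the counts do not show less SERT transcript than in colonocytes. The highest level, 40.5 CPM in AD pericytes and smooth muscle, rested on 6 UMIs, with 1 UMI (8.48 CPM) in WT, and its interval overlapped that of the next class.

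Slc29a4, the plasma membrane monoamine transporter PMAT, was highest in peptide enteroendocrine cells, and in goblet cells it was higher in the AD library. It was at 178 CPM (112 to 270, 22 UMIs) in AD and 331 CPM (199 to 516, 19 UMIs) in WT peptide enteroendocrine cells, in 6 of 11 AD and 4 of 6 WT cells. In enterochromaffin cells it was at 40.9 CPM in AD and 41.2 CPM in WT, on 9 and 13 UMIs in AD and WT. In goblet cells it had 157 UMIs in AD, a level of 26.4 CPM (22.4 to 30.8), and 11 UMIs in WT, a level of 6.44 CPM (3.22 to 11.5). The log2 ratio was 1.97 (1.15 to 3.07), a level 3.93-fold higher in AD. With each cell thinned to 1000 UMIs the log2 ratio was 0.89, at 23.8 CPM in AD and 8.25 CPM in WT. Those levels were still more than 2-fold apart. The thinned sums were means of 11.4 UMIs in AD and only 0.8 UMIs in WT. The count added to each sum before taking the ratio brought it under 2-fold. In goblet cells the enteroendocrine marker list was at 165.7 CPM in AD and 34.6 CPM in WT, and the peptide hormone list at 678 CPM in AD and 278 CPM in WT. The part of these markers in the Slc29a4 value was not tested.

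Goblet cells with Slc29a4 made up 81 of 514 cells (15.8%) in AD and 7 of 108 (6.48%) in WT, against 7 of 1008 (0.694%) and 0 of 56 plasma cells in AD and WT. At 1000 UMIs per cell the median share in goblet cells was 2.30% in AD and 1.03% in WT, and the WT share stood for about 1 cell, so no change was read from it. Median depth was close, at 8797.5 UMIs in AD and 9319.5 UMIs in WT goblet cells. The median mitochondrial share was 9.51% in AD and 13.4% in WT goblet cells, and the part of this in the result was not tested. Goblet cells held 57.5% of all Slc29a4 UMIs in AD and 18.3% in WT, and enteroendocrine cells held 11.4% in AD and 53.3% in WT. The Slc29a4 level over all enteroendocrine cells was 80.2 CPM in AD and 83.5 CPM in WT, a log2 ratio of −0.06 (−0.82 to 0.70). Shares also depend on class size. Enteroendocrine cells gave 386363 of 31965644 kept UMIs in AD and 383248 of 12378448 in WT, and goblet cells 5951508 in AD and 1707132 in WT.

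**Figure D3:**
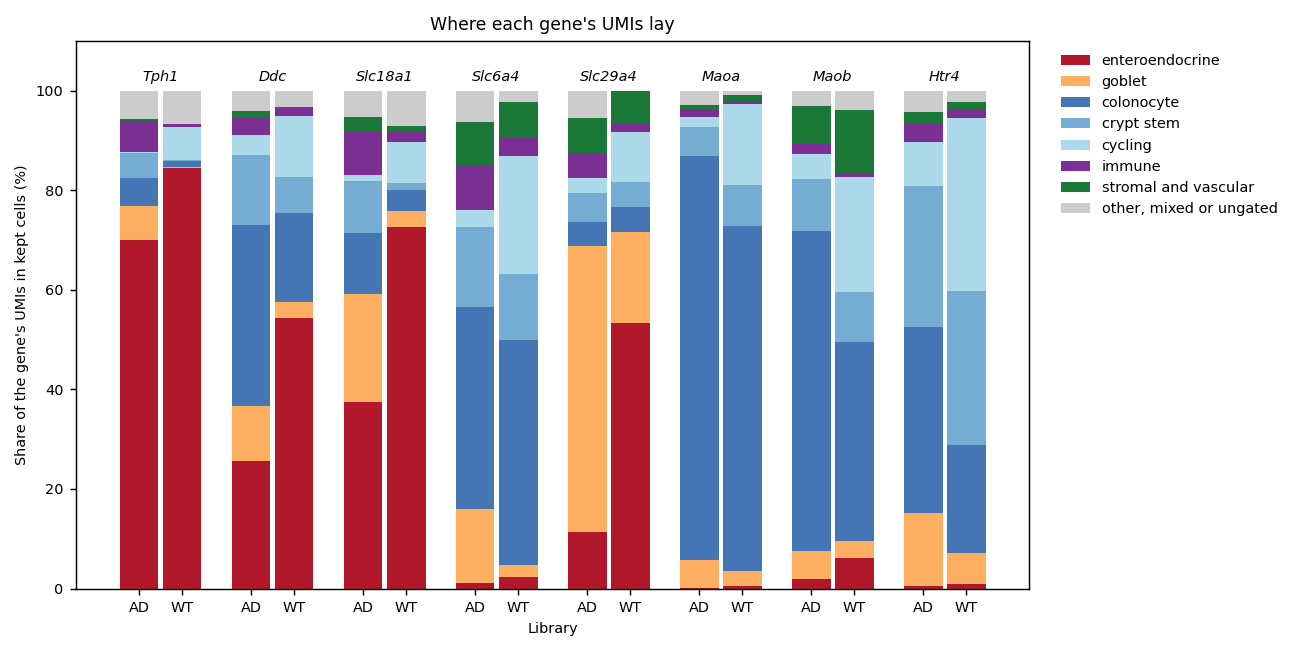
Share of each gene's UMIs in kept cells (%) that lay in each group of cell classes, AD left of WT for every gene. Enteroendocrine cells held 70.0% of AD and 84.4% of WT Tph1 UMIs, colonocytes held 81.2% of AD and 69.2% of WT Maoa UMIs, and goblet cells held 57.5% of AD and 18.3% of WT Slc29a4 UMIs.

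Breakdown lay mainly in colonocytes. Maoa, monoamine oxidase A, which prefers serotonin as its substrate, had 17921 UMIs in AD and 5251 UMIs in WT colonocytes, levels of 2111 CPM (2080.0 to 2142) and 1804 CPM (1756 to 1854) in AD and WT. It was detected in 641 of 663 AD and 160 of 175 WT colonocytes. The log2 ratio was 0.23 (0.18 to 0.27), a difference 1.17-fold in size whose interval excludes 0 on counting error. In crypt stem cells Maoa was at 609 CPM in AD and 601 CPM in WT, and in cycling cells at 528 CPM in AD and 533 CPM in WT, with log2 ratios of 0.02 and −0.01. The order of colonocyte, crypt stem, cycling and goblet was the same in both libraries, and crypt stem and cycling cells did not differ beyond their intervals.

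Other classes had less Maoa. In goblet cells it was at 203 CPM in AD and 138 CPM in WT, with a log2 ratio of 0.55 (0.35 to 0.76). In enterochromaffin cells it was at 149.9 CPM (33 UMIs) in AD and 76.1 CPM (24 UMIs) in WT, with a log2 ratio of 0.97 (0.18 to 1.80). In fibroblasts it was at 65.3 CPM in AD and 43.7 CPM in WT, and in B cells at 38.7 CPM (33 UMIs) in AD and 17.5 CPM (9 UMIs) in WT, where the log2 ratio was 1.09 (0.05 to 2.39). Endothelial cells went the other way, with 86.3 CPM in AD and 128.9 CPM in WT, and a log2 ratio of −0.54 (−1.61 to 0.36). T cells and macrophages had log2 ratios of 0.43 and 0.32 whose intervals included 0.

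Maob, monoamine oxidase B, was higher in AD in colonocytes, crypt stem, cycling and goblet cells. In colonocytes it had 994 UMIs in AD, a level of 117 CPM (109.9 to 125), and 145 UMIs in WT, a level of 49.8 CPM (42.0 to 58.6). The log2 ratio was 1.23 (0.98 to 1.49), a level 2.34-fold higher in AD. It was 1.11 (0.60 to 1.68) in crypt stem cells, at 77.7 CPM in AD and 35.6 CPM in WT, and 1.34 (0.88 to 1.81) in cycling cells, at 91.7 CPM in AD and 36.2 CPM in WT. In goblet cells it was 0.89 (0.09 to 1.91), at 14.6 CPM in AD and 7.62 CPM in WT. With a 10% mitochondrial limit Maob was 2.27 in colonocytes but −1.13 in crypt stem cells, lower in AD. In fibroblasts Maob was at 44.1 CPM in AD and 44.8 CPM in WT, with a log2 ratio of −0.03 (−0.53 to 0.51). In enterochromaffin cells it was at 109 CPM in AD and 69.7 CPM in WT, with a log2 ratio of 0.64 (−0.25 to 1.55). Enteric glia, with 3 cells in AD and 23 in WT, were too few to compare, and gave 0 Maob UMIs in AD and 6 (73.0 CPM) in WT.

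Colonocytes with Maob numbered 344 of 663 (51.9%) in AD and 68 of 175 (38.9%) in WT, against 22 of 1008 (2.18%) AD and 0 of 56 WT plasma cells. At 1000 UMIs per cell the median shares were 9.84% in AD and 4.35% in WT colonocytes, with 18 AD and 14 WT cells too shallow to be used. In colonocytes there were 0.0555 (0.0520 to 0.0591) Maob UMIs per Maoa UMI in AD and 0.0276 (0.0233 to 0.0326) in WT, intervals that did not overlap. Nearly every colonocyte with Maob also had Maoa, 342 of 344 in AD and 67 of 68 in WT. The median mitochondrial share was 16.2% in AD and 17.8% in WT colonocytes, and median depth was 11029 UMIs in AD and 13646 UMIs in WT. In colonocytes the plasma cell marker list was at 3041 CPM in AD and 393 CPM in WT, and the goblet list at 897 CPM in AD and 368 CPM in WT. The part of these values in the Maob result was not tested.

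Htr4, the receptor, couples to cyclic AMP and is known for effects on gut motility and secretion. Among the crypt stem, cycling, colonocyte and goblet classes, its level fell in that order in both libraries. Position along the crypt was not measured. In crypt stem cells it was at 193 CPM (174 to 213) in AD and 162 CPM (139 to 189) in WT, in 103 of 128 AD and 37 of 45 WT cells, with a log2 ratio of 0.24 (−0.02 to 0.51). The intervals of crypt stem and cycling cells overlapped in AD and did not in WT.

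In cycling cells, colonocytes and goblet cells the log2 ratios were larger than in crypt stem cells. In cycling cells Htr4 was at 150.1 CPM in AD and 81.8 CPM in WT, with a log2 ratio of 0.88 (0.54 to 1.21). In colonocytes it was at 62.7 CPM in AD and 40.9 CPM in WT, with a log2 ratio of 0.61 (0.33 to 0.92). In goblet cells it was at 34.9 CPM in AD and 19.9 CPM in WT, with a log2 ratio of 0.79 (0.28 to 1.38). These 3 were higher in AD by less than 2-fold. In cycling cells the direction turned under 2 of 13 alternatives, to −0.20 with a 10% mitochondrial limit and −0.04 with Leiden clusters of cells in place of marker-gated classes, and the ratio was 1.05 with cells thinned to 1000 UMIs. In goblet cells it turned under 1, to −0.29 with cells thinned, at 36.1 CPM in AD and 40.2 CPM in WT, and was 1.01 with the 10% limit. The thinned goblet sums were means of only 17.3 UMIs in AD and 3.9 UMIs in WT, so that turn rests on few UMIs. Enterochromaffin cells held 6 UMIs in AD and 4 in WT, and fibroblasts were at 10.9 CPM in AD and 7.12 CPM in WT. Cells with Htr4 in the crypt stem class were 80.5% in AD and 82.2% in WT, against 3.17% of AD and 1.79% of WT plasma cells.

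Read over all 8 genes, most class values lay within 2-fold. A gene was compared in a class with at least 20 cells in each library when it had at least 30 UMIs over both. In enterochromaffin cells 5 of the 8 genes were compared, and 1 was at least 2-fold lower in AD (Tph1) and 0 higher, where 4.92% of 3574 compared genes were lower and 4.39% were higher. The median log2 ratio was 0.10 for the 5 genes and 0.02 for all compared genes. In enteroendocrine cells 6 were compared and 2 were lower (Tph1 and Slc18a1), with 4.83% of all genes lower and 4.08% higher. In colonocytes 7 were compared and 1 was higher (Maob), with 3.98% of all genes higher and 1.83% lower, and medians of 0.23 for the 7 genes and 0.05 for all.

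In goblet cells 7 were compared and 2 were higher (Tph1 and Slc29a4), with 3.59% of all genes higher and 3.03% lower, and medians of 0.83 for the 7 genes and −0.03 for all. In crypt stem cells 5 were compared and 1 was higher (Maob), with 3.93% of all genes higher and 2.01% lower. In cycling cells 5 were compared, 1 higher (Maob) and 1 lower (Tph1), with 2.9% of all genes higher and 2.97% lower. Of 3 compared in plasma cells 1 was lower (Ddc), with 6.24% of all genes lower and 10.7% higher, and the single gene compared in B cells (Maoa) was higher, with 4.75% of all genes higher and 1.77% lower. Of 3 compared in fibroblasts 0 passed 2-fold, with 3.01% of all genes higher and 1.67% lower. Maoa alone was compared in T cells, endothelial cells and macrophages and passed 2-fold in none of them, where the shares of all genes were 6.32% higher and 2.95% lower in T cells, 3.9% higher and 4.78% lower in endothelial cells, and 7.93% higher and 4.1% lower in macrophages. Over all epithelial cells all 8 were compared, with 1 higher (Maob) and 2 lower (Tph1 and Slc18a1), against 3.15% of all genes higher and 5.2% lower. With so few genes per class, no count was read as particular to the serotonin genes.

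**Figure D4:**
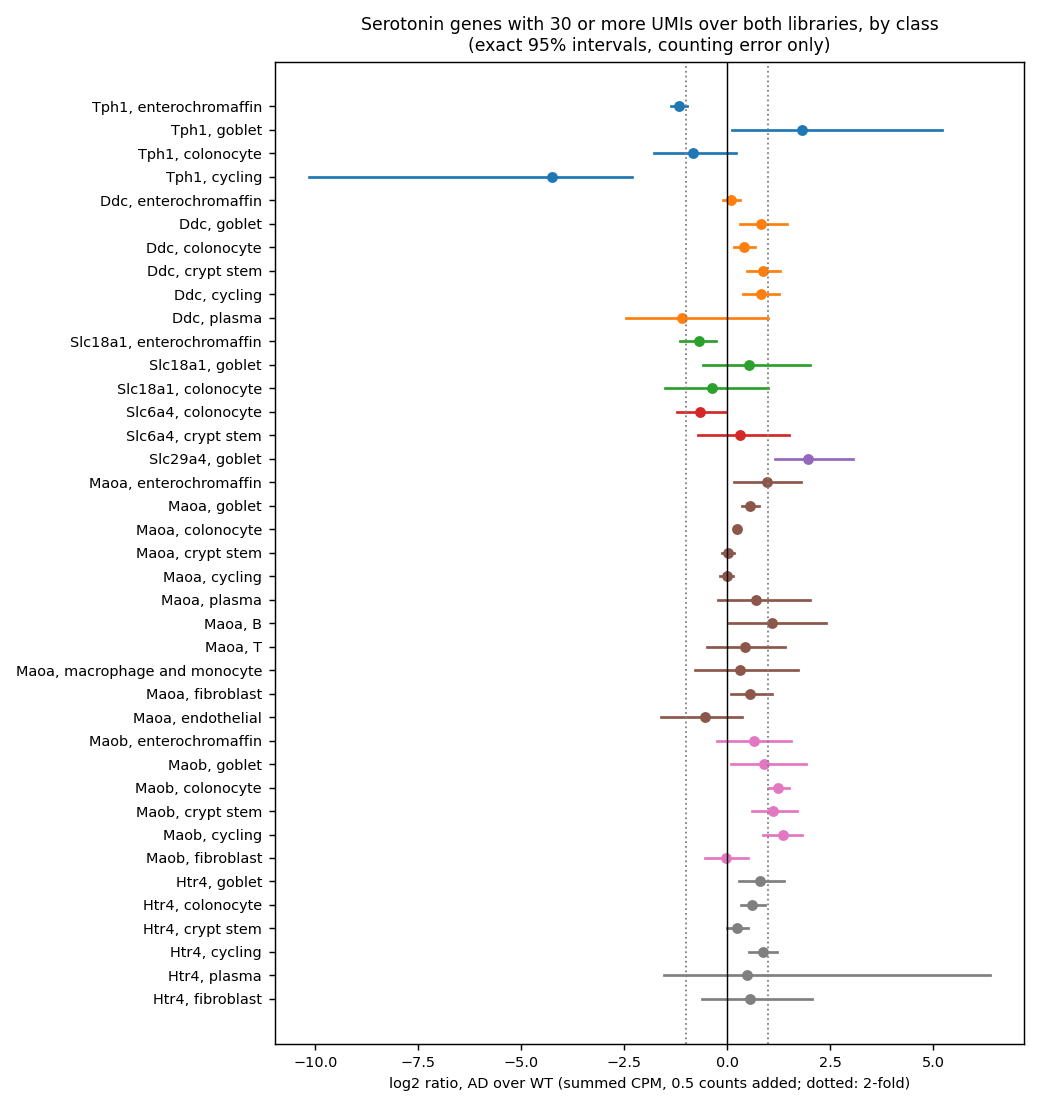
Log2 ratio of AD over WT for each serotonin gene and class compared (points, exact 95% intervals for counting error; dotted lines mark 2-fold, and each color is a gene). Tph1 lay at −1.16 in enterochromaffin cells while Ddc lay at 0.10, and Maob lay at 1.23, 1.11 and 1.34 in colonocytes, crypt stem cells and cycling cells while fibroblasts lay at −0.03.

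Genes that act around the 8 were taken from 7 lists with 54 genes, of which 53 were listed. In enterochromaffin cells 4.39% of 3574 compared genes were at least 2-fold higher in AD and 4.92% lower, with a median log2 ratio of 0.02. There, 4 of 8 genes for tetrahydrobiopterin, the cofactor of tryptophan hydroxylase, were compared and 0 passed 2-fold, with a median of −0.44. Gch1, the first enzyme of that pathway, was at 227 CPM in AD and 254 CPM in WT. Qdpr, which recycles the cofactor, was at 90.9 CPM in AD and 149.0 CPM in WT, Pcbd1 at 118 CPM in AD and 136 CPM in WT, and Pts at 36.3 CPM in AD and 69.7 CPM in WT. The 4 had negative log2 ratios of −0.15, −0.69, −0.20 and −0.88 in that order, and the interval of each included 0.

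Of 11 genes for tryptophan entry and the kynurenine branch, 2 were compared in enterochromaffin cells and both were at least 2-fold higher in AD. They were the paired chains of the large neutral amino acid transporter that carries tryptophan. Of all 3574 genes compared in these cells 4.39% were higher, and a count on 2 genes was not read as particular to this list. Slc7a5 was at 118 CPM (26 UMIs) in AD and 57.1 CPM (18 UMIs) in WT, with a log2 ratio of 1.04 (0.13 to 2.00). Slc3a2 was at 90.9 CPM (20 UMIs) in AD and 34.9 CPM (11 UMIs) in WT, with a log2 ratio of 1.35 (0.25 to 2.59). Slc3a2 was highest in plasma cells in both libraries, at 583 CPM in AD and 590 CPM in WT. Plasma markers summed to 2862 CPM in AD and 206 CPM in WT enterochromaffin cells. In plasma cells they summed to 368244 CPM in AD and 353222 CPM in WT. The part of plasma cell RNA in the Slc3a2 value was not tested.

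Of 8 listed sensor and channel genes of enterochromaffin cells, 4 were compared and 0 passed 2-fold, against 4.39% of genes higher and 4.92% lower. Piezo2, a mechanosensitive channel, was at 1663 CPM in AD and 1255 CPM in WT, with a log2 ratio of 0.41 (0.20 to 0.61). The channel genes Scn3a and Cacna1a had log2 ratios of 0.21 and −0.30, and Ffar2, a receptor for short-chain fatty acids, of 0.50. Piezo2 was thus higher in the same AD cells in which Tph1 was lower, beyond counting error. Other serotonin synthesis and storage genes (Tph2, Slc18a2, Aanat and Asmt) gave 0 compared in these cells, with 3 of the 4 at 0 UMIs, as did low-affinity uptake transporters (0 of 3 compared) and other serotonin receptors (0 of 13 compared, 9 at 0 UMIs).

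In colonocytes, 4 of 6 genes for later breakdown and conjugation were compared and 0 passed 2-fold, against 3.98% of genes higher and 1.83% lower. The other 2, Ugt1a6a and Ugt1a6b, had 0 UMIs over all kept cells of both libraries, so their 0 is not particular to colonocytes. Aldh2, which oxidizes the aldehyde that monoamine oxidase leaves, was at 583 CPM in AD and 405 CPM in WT, with a log2 ratio of 0.52 (0.43 to 0.62). Aldh1a1 was at 124 CPM in AD and 205 CPM in WT, with a log2 ratio of −0.73 (−0.87 to −0.58). Sult1a1, a sulfotransferase, had a log2 ratio of 0.21 and Aldh1b1 of −0.21. In goblet cells Sult1a1 was at 49.9 CPM in AD and 14.6 CPM in WT, a log2 ratio of 1.74 (1.18 to 2.42). It was the only 1 of 4 compared there to pass 2-fold, where 3.59% of all compared genes were higher. The receptor Htr1f was at 5.89 CPM in AD and 6.87 CPM in WT colonocytes, within 2-fold.

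The genes whose pattern over classes was most like each serotonin gene were found by Pearson's r of log2(CPM + 5) over 26 points, 13 classes in each library, among 11963 genes. These values are a description, since the points share libraries and depth. For Tph1 they were Gsdma (0.98), Nefm (0.98) and Vwa5b2 (0.97), for Ddc Cwh43 (0.90), Dact2 (0.89) and Kif12 (0.89), and for Slc18a1 Rimbp2 (0.92), Gsdma (0.91) and Nkx2-2 (0.91). Those of Slc29a4 were Ptprt (0.92), Slc35g2 (0.89) and Rprm (0.86), and those of Maob were Ptprd (0.90), Steap2 (0.90) and Nectin3 (0.89). Maoa was most like Hadh (0.95), Aqp4 (0.94) and Ugt2b34 (0.93), and Htr4 most like Cftr (0.95), Cluh (0.93) and Fgfbp1 (0.91). Slc6a4 had the weakest likeness, with Rbm45, Gpc4 and Plcb3 each at 0.80. Gsdma was named for both Tph1 and Slc18a1.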

How the data were processed

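For each library the deposited matrix holds whole-number UMI counts of genes by cell barcodes, not normalized. The tools named in the submitters' processing notes are Cell Ranger 3.0.1, STAR and Seurat 3.0.2, and the genome build is mm10. No deposited barcode had counts summing to under 500 UMIs. The genes and pathway lists were chosen with earlier results of these data known, and the way marker scores decide a class was set after the data, these genes' levels included, had been seen. The lists therefore support nothing by themselves.

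Barcodes were kept from 500 UMIs and 200 genes upward when mitochondrial UMIs did not exceed 25%. Each was assigned to 1 of 26 classes by 265 marker genes, 3 of which were not listed. A class needed at least 3 detected markers, and its score had to lead. A cell whose next unrelated class scored more than 0.5 of the best was set aside as mixed, which is the only treatment of doublets. In 5 AD and 1 WT enteroendocrine cells just 3 markers were detected, and the median was 8.5 in AD and 10.0 in WT. Another epithelial subclass scored over that share in 14 AD and 16 WT enteroendocrine cells. A further 64 AD and 52 WT epithelial cells matched no subclass and stayed unnamed, with median depths of 965.5 and 1056.5 UMIs in AD and WT, and 200 AD and 68 WT cells met no gate.

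UMIs were summed per class and library, as CPM with exact Poisson 95% intervals. Ratios are log2 of AD over WT CPM with 0.5 counts added, with an interval conditional on the total count, and an upper limit for 0 UMIs is 3 counts. Shares of cells have exact Clopper-Pearson intervals. Cells were thinned to 1000 UMIs 20 times. There is no test between genotypes, because each has 1 library. All 8 genes were named in every class. From each pathway list up to 4 genes with the most UMIs in the class were named, and for each serotonin gene the 3 of highest Pearson r, with gate markers left out. The ratio intervals were tried on simulated Poisson sums that held no spread between cells. That trial cannot show how the intervals hold where UMIs gather in a few cells. Promoter letters were read from RefSeq windows on GRCm38.p6, and Htr4 was given none. Alternatives were other mitochondrial and depth limits, a stricter gate, Leiden clusters, kept mixed cells, other scalings, 1 count added, thinning, leaving out the top cell and other count minimums. Work was done in Python 3.11.15 with numpy 2.4.6, scipy 1.17.1, pandas 2.3.3, scanpy 1.11.5, leidenalg 0.10.2 and matplotlib 3.10.9.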

Additional observations from a re-analysis of the deposited data

Results flagged for a closer look

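Tph1 had log2 ratios of AD over WT in opposite directions in different cell classes. It was −4.26 in cycling cells, −1.71 in all enteroendocrine cells and −1.16 in enterochromaffin cells, but 1.81 in goblet cells. The difference between classes was not tested. In Leiden clusters the direction turned in the cycling and goblet classes, to 2.92 and −0.74. The cycling and goblet values rested on 3 WT cycling cells with 77 of 79 UMIs and 3 AD goblet cells with 22 of 30 UMIs, whereas the enterochromaffin value rested on 27 AD and 33 WT cells with the transcript.

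Barcodes left out for more than 25% mitochondrial UMIs also carried serotonin gene signal. Over the 1952 AD and 2500 WT such barcodes with enough genes, Maob had 311 UMIs (46.3 CPM) in AD and 218 UMIs (15.3 CPM) in WT, a log2 ratio of 1.60 (1.34 to 1.85). Slc29a4 had 31 UMIs (4.61 CPM) in AD and 23 UMIs (1.62 CPM) in WT, a log2 ratio of 1.51 (0.69 to 2.36). Tph1 had 93 UMIs (13.8 CPM) in AD and 290 UMIs (20.4 CPM) in WT, a log2 ratio of −0.55 (−0.91 to −0.22). These sums mix all cell classes.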

How the results depend on the processing

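Under 14 alternatives the log2 ratio of AD over WT in enterochromaffin cells stayed between −1.53 and −0.72 for Tph1, −0.91 and −0.62 for Slc18a1, and −0.10 and 0.32 for Ddc. Tph1 was −1.44 with a 10% mitochondrial limit, −1.44 in Leiden clusters, −1.53 thinned to 1000 UMIs, −1.36 without the top cell of each library and, with 2 markers required (an alternative chosen after seeing the data), −0.72. Ddc was 0.32 without epithelial cells of an unclear subclass, also chosen after seeing the data. Over all enteroendocrine cells Tph1 was −2.32 and Slc18a1 −1.78 with the 10% limit, and Tph1 was −1.93 without the top cell. Over all epithelial cells Tph1 was −3.67 with a 10%, −1.93 with a 50% and −1.68 with no mitochondrial limit, and −3.10 thinned. With the 50% limit, 29 of 2535 AD and 39 of 1974 WT epithelial cells were enterochromaffin (1.14% and 1.98% in AD and WT), so the share gap depended on that limit. Maob in colonocytes was 2.27, 1.67 and 1.99 with the 10%, 50% and no limit, and stayed above 1.03 under all 13 alternatives. Maoa in colonocytes was 0.51, 0.67 and 0.93 with these limits, 0.29 with a stricter gate and thinned (0.29), 0.42 in Leiden clusters and 0.17 centred on the class median. Slc29a4 in goblet cells was 3.21 with the 10% limit and 0.89 thinned, the latter on a mean of 0.8 UMIs in WT before 0.5 counts were added. Over all cell classes the sign turned in 47 of 793 log2 ratios, those of 29 of 61 gene and class pairs. With cells thinned to 1000 UMIs, Htr4 in plasma cells was −0.33, at 7.87 CPM in AD and 0.96 CPM in WT. Slc18a1 in thinned goblet cells was −0.90, at 3.65 CPM in AD and 3.61 CPM in WT. Both levels stayed higher in AD, and the 0.5 counts added to means of 0.05 and 0.35 WT UMIs gave the negative sign. The minimum of 30 UMIs was not applied to these thinned sums. The cause of the other turns was not tested. In 17 of the 29 the interval of the reported ratio spans 0. The other 12 were Ddc in colonocytes, crypt stem cells and 2 sums over epithelial cells, Htr4 in cycling and goblet cells and the same 2 sums, Slc6a4 in colonocytes, Maob in crypt stem cells, and Tph1 in cycling and goblet cells. Among ratios past 2-fold, Maob in crypt stem cells was −1.13 with the 10% limit, and in Leiden clusters Tph1 was 2.92 in cycling and −0.74 in goblet cells.

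Enteroendocrine cells held 82.7% of AD and 96.5% of WT Tph1 UMIs with the 10% limit, 56.3% and 74.2% with 50%, 56.1% and 73.2% with none, 87.3% and 98.4% in Leiden clusters and 57.5% and 59.6% without cells of an unclear subclass (AD and WT in that order). In WT the share was 90.2% with a stricter gate and 89.6% with mixed cells kept. Counts of genes at least 2-fold higher and lower in AD were, in colonocytes, 407 and 187, against 111 and 50 with a minimum of 100 UMIs and 2287 and 2322 with 1 UMI. Those lower were 416 with the 50% limit and 404 in Leiden clusters, and with no limit 831 were higher and 479 lower. In enterochromaffin cells 157 and 176 became 26 and 27 with 100 UMIs and 2998 and 3269 with 1 UMI, and in goblet cells 355 and 300 became 120 and 75, and 2356 and 2791. The other 178 of 231 values of the main results moved by less than their interval, or by less than 1.5 times for counts.

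No paired analysis was possible because each genotype has 1 library. The depth limits Slc6a4, Slc29a4 and Htr4 in enterochromaffin cells, with 0 to 13 UMIs per library.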

Other observations

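The mixed cells that were set aside held 16 Tph1 UMIs in AD and 75 in WT, and 62 of the 75 lay in 1 WT cell. Cells that met no gate held 5 Tph1 UMIs in AD and 4 in WT. In AD, 3 cells passed an enteric neuron gate and held 4 Tph1 UMIs, whereas no WT cell passed it.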
